A study of Mus musculus with 9 samples.

Results

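The genes described here are the Wnt ligands, their receptors and their modulators, measured by RNA sequencing in mouse fat cells differentiated with or without sodium alginate, a salt of a polysaccharide of brown algae. They were chosen by gene symbol: every protein-coding gene named Wnt, Fzd, Sfrp, Dkk or Rspo followed by a number, plus Wif1, Frzb, Lrp5, Lrp6, Lgr4, Ror1, Ror2, Ctnnb1, Apc, Axin1, Axin2, Tcf7, Tcf7l1, Tcf7l2, Lef1 and Wisp2. The rule found 57 genes among the 41761 in the deposited table, of which 20461 are protein-coding. No expression value entered the choice.

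The cells were adipose-derived stromal cells of inguinal (subcutaneous) fat from wild-type C57BL/6J mice, grown past confluence and induced to form white adipocytes. Sodium alginate was present throughout at 0, 50 or 100 µM, with 3 libraries per dose and 9 in all. At every dose, 0 µM included, the induction medium held insulin (1 µg/ml), dexamethasone (1 µM) and IBMX (0.5 mM); the treatment protocol also lists rosiglitazone (1 µM), a PPARγ agonist, which the design text does not. The medium was changed on day 2 at every dose. The titles of the 100 µM libraries read 50 µM, but their treatment label and library name read 100 µM and were followed, and titles give day 6 where the protocol gives RNA collection on day 7. The labels give neither age nor sex and name no separate culture or animal for each library, so a p-value here reflects only the scatter among libraries of a dose, and that scatter could be technical.

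Wnt proteins are secreted lipid-modified ligands that bind Frizzled receptors. Together with the co-receptors LRP5 and LRP6 they stop a destruction complex built on Axin and APC from degrading β-catenin, which then acts with TCF/LEF factors on transcription; other Wnts, such as Wnt5a, act through Frizzled and the ROR receptors without β-catenin. R-spondins amplify the signal through LGR receptors, and secreted Frizzled-related proteins (Sfrp genes and Frzb), Dickkopfs and Wif1 act outside the cell, mostly as inhibitors. In fat, the β-catenin branch is known to hold precursor cells back from becoming adipocytes.

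Levels are FPKM, that is fragments per kilobase of a gene, adjusted for library depth, so they can be set against each other between genes. Libraries held 14019672 to 17094467 reads. Adipocyte markers were high in every library: Adipoq, which encodes adiponectin, averaged 594 ± 26.7 FPKM at 0 µM, 656 ± 21.2 at 50 µM and 956 ± 64.9 at 100 µM (SD, n = 3 each). All 16 tested adipocyte markers were called higher at 100 µM than at 0 µM, and the summed level of their list lay between 11410 and 12136 FPKM at 100 µM, against 7848 to 8019 FPKM at 0 µM. Of 13 tested stromal progenitor markers 10 were called lower, with a summed level of 2449 to 2876 FPKM at 100 µM, against 3381 to 3630 FPKM at 0 µM. The libraries also held transcripts of other cells: 8 of 10 tested macrophage markers and 9 of 11 tested endothelial markers were called lower at 100 µM. Over all tested genes, 18.3% were called higher and 15.6% lower at 100 µM against 0 µM (calls are defined below). The macrophage list summed to 202 to 208 FPKM at 100 µM, against 251 to 280 FPKM at 0 µM, and the endothelial list to 168 to 172 FPKM, against 199 to 221 FPKM. The part of these shifts in the results below was not tested, and in bulk RNA fewer cells of a type and less RNA per cell cannot be told apart. Libraries of the same dose differed by more than counting noise in every pair, with a chi-square per gene of 3.21 to 7.22. One library, 50 µM replicate 3, stood furthest from its own dose, at 6.82 and 7.22. The pair of 100 µM replicates 1 and 3 was not far behind, at 6.49.

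Of the 57 genes, 26 reached 1 FPKM in at least 3 libraries and were tested; a call is an adjusted p below 0.05 over all 12635 tested genes (limma, Benjamini-Hochberg), and fold changes are differences in log2(FPKM + 1), which understate the change of low genes. At 100 µM against 0 µM, 11 of the 26 were called lower and 1 was called higher, that is 42.3% and 3.85%; over all tested genes 15.6% were called lower and 18.3% higher. Their median log2 fold change was -0.19, against 0.01 over all tested genes, and 21 of 26 values were negative. Frzb, 1 of the 11 called lower, reached 1 FPKM in no 100 µM library, so its direction was in part set by the filter. At 50 µM against 0 µM limma called none of the 26 (background 0.356% higher and 0.435% lower); 5 had an unadjusted p below 0.05, and limma-voom on rebuilt reads called 2 lower, Sfrp1 and Sfrp2. At 100 µM against 50 µM, 8 were called lower and none higher, the same count of 0 for higher genes that an unadjusted p below 0.05 and voom gave; the background was 12.0% lower and 13.2% higher. Without 100 µM replicate 2 that count of 8 was 5, and without 100 µM replicate 1 one gene, Lgr4, was called higher. The 3 comparisons share libraries and are not independent.

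**Figure D1:**
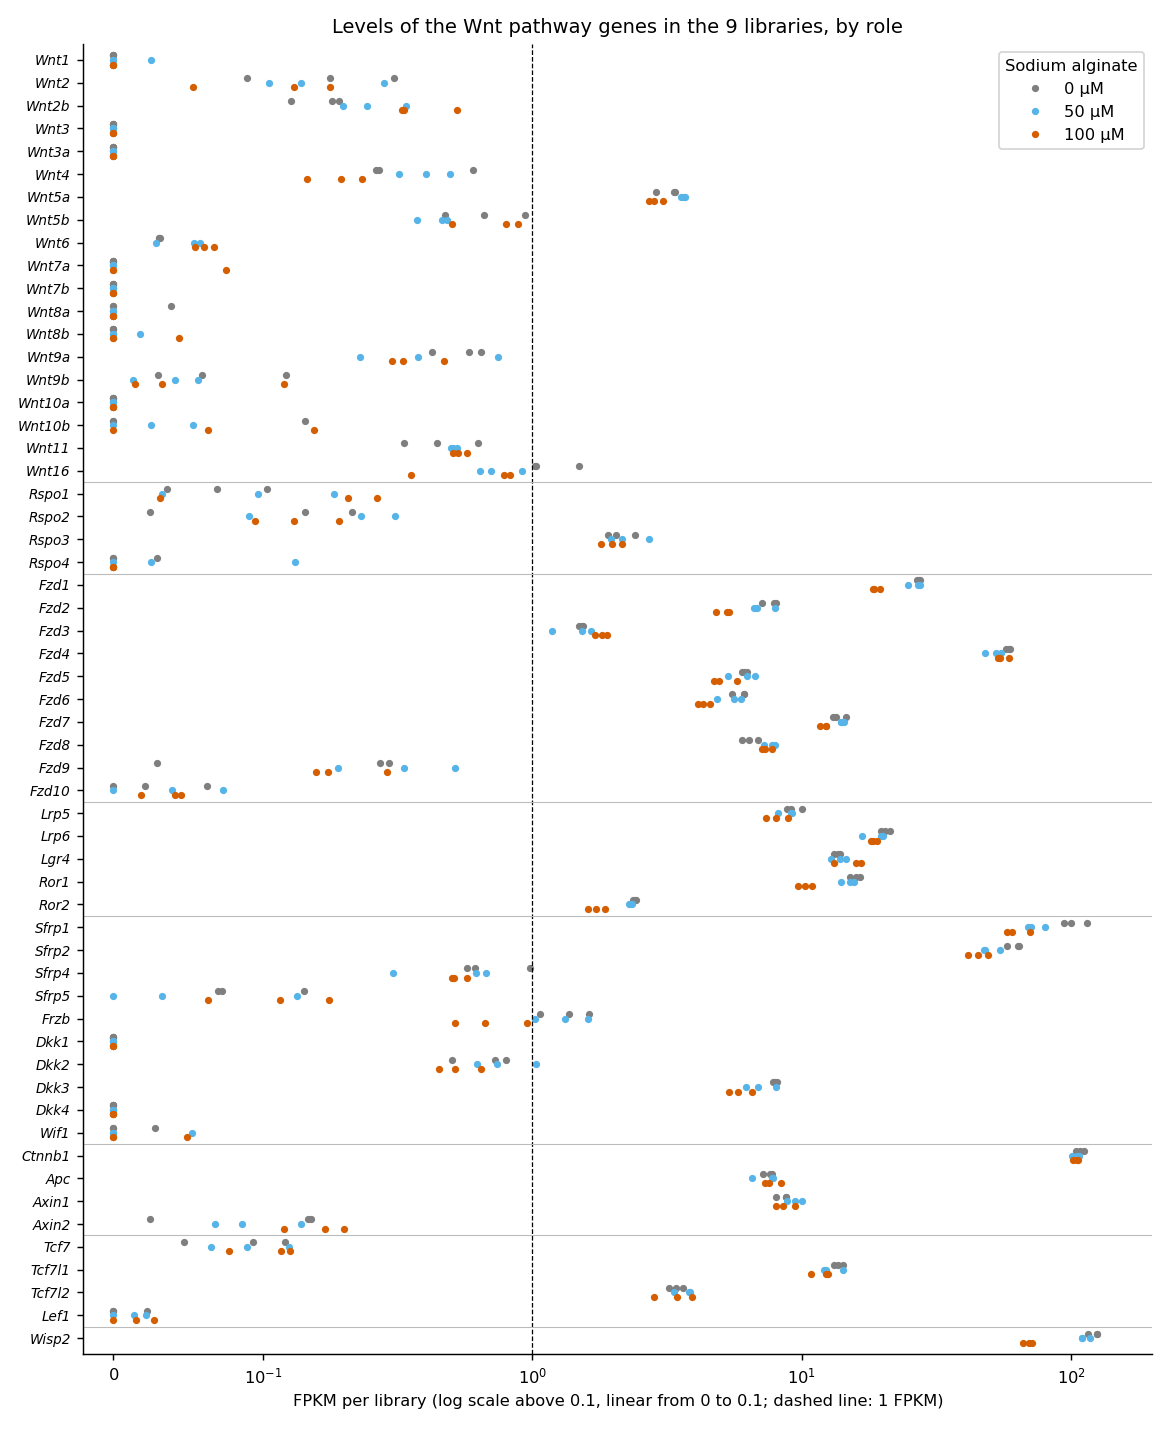
Level of each of the 57 genes in all 9 libraries, in FPKM on an axis that is logarithmic above 0.1 and linear below it, with 1 point per library, 1 colour per dose, genes grouped by role and a dashed line at 1 FPKM. Wisp2, Ctnnb1, Sfrp1, Sfrp2 and Fzd4 lie highest, and the tested ligands Wnt5a and Wnt16 lie low.

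Expression of the ligands themselves was low. Of 19 Wnt genes, 2 passed the filter, and Wnt3, Wnt3a, Wnt7b and Wnt10a had no read in any library; a count of 0 allows up to 3 reads, which for Wnt10a is at most 0.122 FPKM in any library. Wnt5a, the ligand of the ROR receptors, had 3.35, 2.88 and 3.39 FPKM at 0 µM, 3.65, 3.68 and 3.55 at 50 µM, and 2.84, 2.70 and 3.05 at 100 µM. The 100 µM and 50 µM libraries did not overlap, whereas 100 µM and 0 µM libraries did. Wnt5a was called lower at 100 µM than at 50 µM, with a log2 fold change at -0.26 ± 0.0697 (SE; limma adjusted p = 0.0242), and was not called at 100 µM against 0 µM (-0.12, adjusted p = 0.214). That call was lost without 50 µM replicate 1, 2 or 3 or without 100 µM replicate 1 or 2, at adjusted p between 0.0506 and 0.0803.

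Wnt16 had 1.49, 1.03 and 1.03 FPKM at 0 µM, 0.640, 0.914 and 0.701 at 50 µM, and 0.825, 0.354 and 0.781 at 100 µM. It passed the filter only through the 0 µM libraries, so the direction of its difference was in part set by the filter; it was not called (log2 fold change -0.41, limma adjusted p = 0.0723 for 100 µM against 0 µM), while voom, which adds no pseudocount of 1 FPKM, called it lower at -0.87 (adjusted p = 0.0168). Wnt10b, the ligand best known for blocking adipogenesis in mouse cells, never exceeded 0.154 FPKM and was at 0 in 4 libraries. Wnt5b, Wnt9a, Wnt4 and Wnt11 stayed below 1 FPKM in every library, with highest values of 0.942, 0.748, 0.603 and 0.627 FPKM. The other 8 ligands, Wnt1, Wnt2, Wnt2b, Wnt6, Wnt7a, Wnt8a, Wnt8b and Wnt9b, reached at most 0.525 FPKM, in Wnt2b. Wnt5b shares its locus with Fbxl14 on the opposite strand, which had up to 840 reads, and strand use in the counting is not stated, so the Wnt5b value is uncertain.

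Among the 4 R-spondins, the amplifiers of Wnt signalling, Rspo3 alone was tested. It had 2.05, 2.40 and 1.91 FPKM at 0 µM, 1.96, 2.16 and 2.71 at 50 µM, and 1.80, 2.15 and 1.98 at 100 µM. The doses overlapped, and no comparison called it (100 µM against 0 µM: log2 fold change -0.06, limma adjusted p = 0.682). Rspo1, Rspo2 and Rspo4 stayed at or below 0.309 FPKM.

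Of the 10 Frizzled receptors 8 were tested, and they differed in what they did at 100 µM. Fzd1, Fzd2, Fzd6 and Fzd7 were called lower than at 0 µM, Fzd8 was called higher, and Fzd3, Fzd4 and Fzd5 were not called. Fzd9 and Fzd10 stayed at or below 0.518 FPKM. The summed Frizzled level averaged 127 ± 1.97 FPKM at 0 µM, 120.3 ± 3.58 at 50 µM and 110.5 ± 4.07 at 100 µM (SD, n = 3 each).

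Fzd1 (MGP_C57BL6NJ_G0029700, chromosome 5, 1976097 to 1980293 of the C57BL/6NJ assembly, minus strand) had 27.4, 27.2 and 26.7 FPKM at 0 µM, 24.8, 27.5 and 26.9 at 50 µM, and 18.4, 18.5 and 19.6 at 100 µM. All 100 µM libraries lay below all others, while the 50 µM and 0 µM libraries overlapped. It was called lower at 100 µM against 0 µM (log2 fold change -0.50 ± 0.0474, SE; limma adjusted p = 7.56e-05) and against 50 µM (-0.47 ± 0.0474; adjusted p = 0.000344), and both calls held in all 17 alternatives.

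Fzd2 had 8.003, 7.13 and 7.89 FPKM at 0 µM, 7.98, 6.81 and 6.64 at 50 µM, and 5.27, 5.36 and 4.81 at 100 µM. Here too the 100 µM libraries lay below the other 6. The log2 fold change at 100 µM was -0.50 ± 0.0750 against 0 µM (SE; limma adjusted p = 0.000977) and -0.40 ± 0.0750 against 50 µM (adjusted p = 0.00468).

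Fzd6, a receptor known for planar cell polarity, had 6.07, 5.51 and 6.11 FPKM at 0 µM, 4.83, 5.59 and 5.93 at 50 µM, and 4.29, 4.11 and 4.56 at 100 µM. Its 100 µM libraries did not overlap either other dose. It was called lower at 100 µM against 0 µM (log2 fold change -0.37 ± 0.0746, SE; limma adjusted p = 0.00431) and against 50 µM (-0.27 ± 0.0746; adjusted p = 0.0262). Against 50 µM the call was lost without 50 µM replicate 2 or 3 or without 100 µM replicate 1 or 2, at adjusted p between 0.0611 and 0.0852.

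Fzd7 had 14.6, 13.1 and 13.3 FPKM at 0 µM, 14.3, 14.0 and 13.9 at 50 µM, and 12.3, 11.6 and 12.3 at 100 µM. The difference was small, with the 100 µM libraries below all others. Fzd7 was called lower at 100 µM against 0 µM (log2 fold change -0.16 ± 0.0496, SE; limma adjusted p = 0.0306) and against 50 µM (-0.21 ± 0.0496; adjusted p = 0.0155). The first call was lost without 0 µM replicate 1 or 3 or without 100 µM replicate 2 or 3 (adjusted p between 0.0502 and 0.101), and the second without 100 µM replicate 2 (adjusted p = 0.0572).

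Fzd8 was the single gene called higher. It had 6.35, 6.86 and 6.01 FPKM at 0 µM, 7.95, 7.74 and 7.25 at 50 µM, and 7.13, 7.72 and 7.29 at 100 µM, so that both alginate doses lay above the 0 µM libraries. The log2 fold change was 0.18 ± 0.0593 for 100 µM against 0 µM (SE; limma adjusted p = 0.0440), and at 50 µM it was 0.22 but not called (adjusted p = 0.117). The call at 100 µM was lost in 12 of 17 alternatives, among them the rescaling to a common sum (adjusted p = 0.209), voom (0.0792) and the removal of the authors' factor per library (0.157). It was also lost without any of 7 libraries, namely 0 µM replicates 1 and 3, 50 µM replicates 1 and 2 and each 100 µM replicate, at adjusted p between 0.0542 and 0.145. Over all tested genes 2314 were called higher and 1965 lower at 100 µM against 0 µM, and those rescalings turned the split to 1630 higher and 2633 lower, and to 1731 higher and 2658 lower.

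Fzd4, the Norrin receptor, was the most abundant Frizzled, with 58.9, 59.4 and 57.03 FPKM at 0 µM, 52.4, 54.7 and 47.9 at 50 µM, and 54.5, 53.5 and 58.7 at 100 µM. It was not called at 100 µM against 0 µM, where the log2 fold change was -0.07 ± 0.0563 (SE; limma adjusted p = 0.361). Its 50 µM level was the lowest of the doses without passing the threshold (-0.18 against 0 µM; adjusted p = 0.186). Fzd5 averaged 6.12 ± 0.116 FPKM at 0 µM, 6.08 ± 0.695 at 50 µM and 5.12 ± 0.558 at 100 µM (SD, n = 3 each; limma adjusted p = 0.0757 for 100 µM against 0 µM). It passed the threshold, as lower, with the common-sum rescaling (adjusted p = 0.0328), voom (0.0280), removal of the authors' factor (0.0329), without 50 µM replicate 1 (0.0449) and without 100 µM replicate 3 (0.0311). Fzd3, a receptor of axon guidance, averaged 1.52 ± 0.0307 FPKM at 0 µM, 1.46 ± 0.247 at 50 µM and 1.80 ± 0.0972 at 100 µM (limma adjusted p = 0.252 for 100 µM against 0 µM).

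The makeup of the Frizzled transcripts therefore differed by dose. Fzd1 made up 21.2%, 21.4% and 21.3% of the summed Frizzled FPKM at 0 µM, 20.8%, 22.1% and 23.0% at 50 µM, and 16.9%, 17.2% and 17.0% at 100 µM. Fzd4 made up 45.6%, 46.8% and 45.6% at 0 µM, 43.9%, 44.0% and 40.8% at 50 µM, and 50.1%, 49.7% and 51.0% at 100 µM. In both shares the 100 µM libraries did not overlap the other doses. The ratio of Fzd1 to Fzd4 within a library averaged 0.339 ± 0.00680 at 100 µM, against 0.463 ± 0.00567 at 0 µM (SD, n = 3 each), and that of Fzd2 to Fzd8 averaged 0.698 ± 0.0393, against 1.20 ± 0.146. Such ratios do not depend on the scaling of a library. Each sets a gene called lower over a gene that was not, so a lower ratio restates those results and is no separate support.

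**Figure D2:**
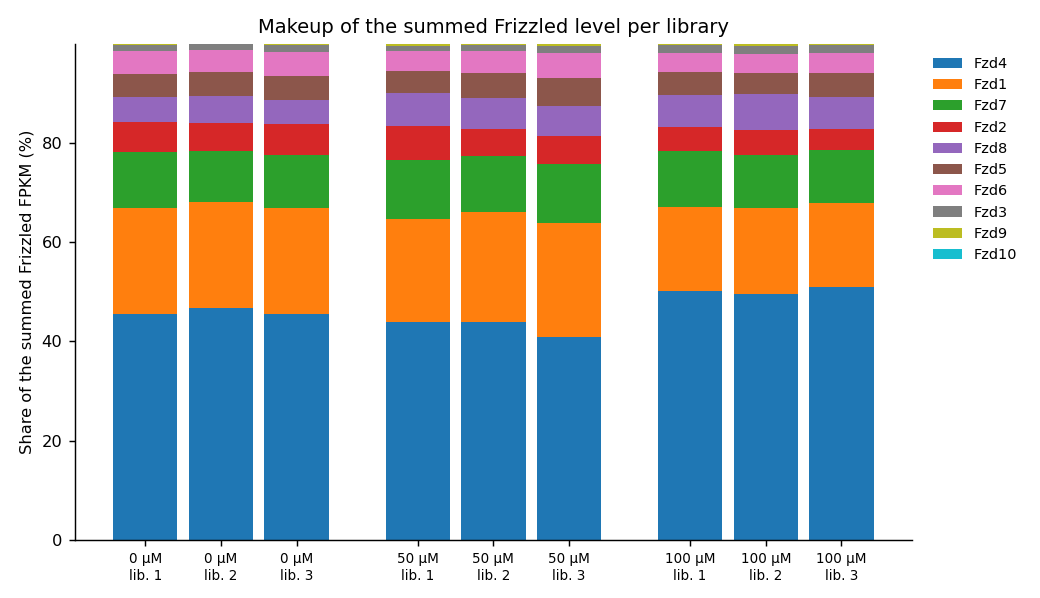
Share of each Frizzled gene in the summed Frizzled FPKM, in percent, as 1 stacked bar per library in order of dose. The Fzd1 share lies between 16.9% and 17.2% in the 100 µM libraries and between 20.8% and 23.0% in the others.

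The other receptors comprised 2 LRP co-receptors, the R-spondin receptor Lgr4 and the kinase-like receptors Ror1 and Ror2, and all 5 were tested. Both ROR genes were called lower at 100 µM than at 0 µM and the other 3 genes were not called. Ror1 (MGP_C57BL6NJ_G0028906, chromosome 4, 104142369 to 104536712 of the C57BL/6NJ assembly, plus strand) had 16.5, 15.1 and 15.9 FPKM at 0 µM, 13.9, 15.6 and 15.1 at 50 µM, and 10.9, 9.67 and 10.2 at 100 µM. The 100 µM values lay apart from the overlapping 50 µM and 0 µM values. Ror1 was lower at 100 µM with log2 fold changes of -0.58 ± 0.0596 against 0 µM (SE; limma adjusted p = 0.000120) and of -0.49 ± 0.0596 against 50 µM (adjusted p = 0.000591), in all 17 alternatives.

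Ror2 had 2.42, 2.36 and 2.39 FPKM at 0 µM, 2.31, 2.33 and 2.28 at 50 µM, and 1.87, 1.72 and 1.61 at 100 µM. The doses did not overlap. Its log2 fold change at 100 µM was -0.31 ± 0.0691 against 0 µM (SE; limma adjusted p = 0.00706) and -0.28 ± 0.0691 against 50 µM (adjusted p = 0.0178). The call against 50 µM was lost without 50 µM replicate 2 or without 100 µM replicate 2 or 3, at adjusted p between 0.0501 and 0.0603.

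Lrp5 averaged 9.30 ± 0.611 FPKM at 0 µM, 8.83 ± 0.564 at 50 µM and 8.11 ± 0.773 at 100 µM (SD, n = 3 each; limma adjusted p = 0.0996 for 100 µM against 0 µM). It passed, as lower, with the common-sum rescaling (adjusted p = 0.0396), voom (0.0361), removal of the authors' factor (0.0374) and without 100 µM replicate 3 (0.0415). Lrp6, the other co-receptor of the β-catenin branch, averaged 20.5 ± 0.814 FPKM at 0 µM, 18.8 ± 1.76 at 50 µM and 18.5 ± 0.505 at 100 µM (limma adjusted p = 0.138 for 100 µM against 0 µM), and passed, as lower, with removal of the authors' factor (0.0345) and without 50 µM replicate 3 (0.0397). Lgr4 had 13.7, 13.1 and 13.8 FPKM at 0 µM, 14.5, 13.9 and 12.9 at 50 µM, and 13.1, 15.9 and 16.6 at 100 µM. One 100 µM library, replicate 1, lay below the 0 µM libraries and the other two above them. Lgr4 was not called against 0 µM (log2 fold change 0.15, limma adjusted p = 0.187), but was called higher without 100 µM replicate 1 (0.25, adjusted p = 0.0154). Within a library, the ratio of Ror1 to Lrp6 averaged 0.557 ± 0.0354 at 100 µM, against 0.774 ± 0.00315 at 0 µM (SD, n = 3 each), and the 100 µM and 0 µM values did not overlap. As Ror1 was called lower and Lrp6 was not, this ratio restates those results.

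**Figure D3:**
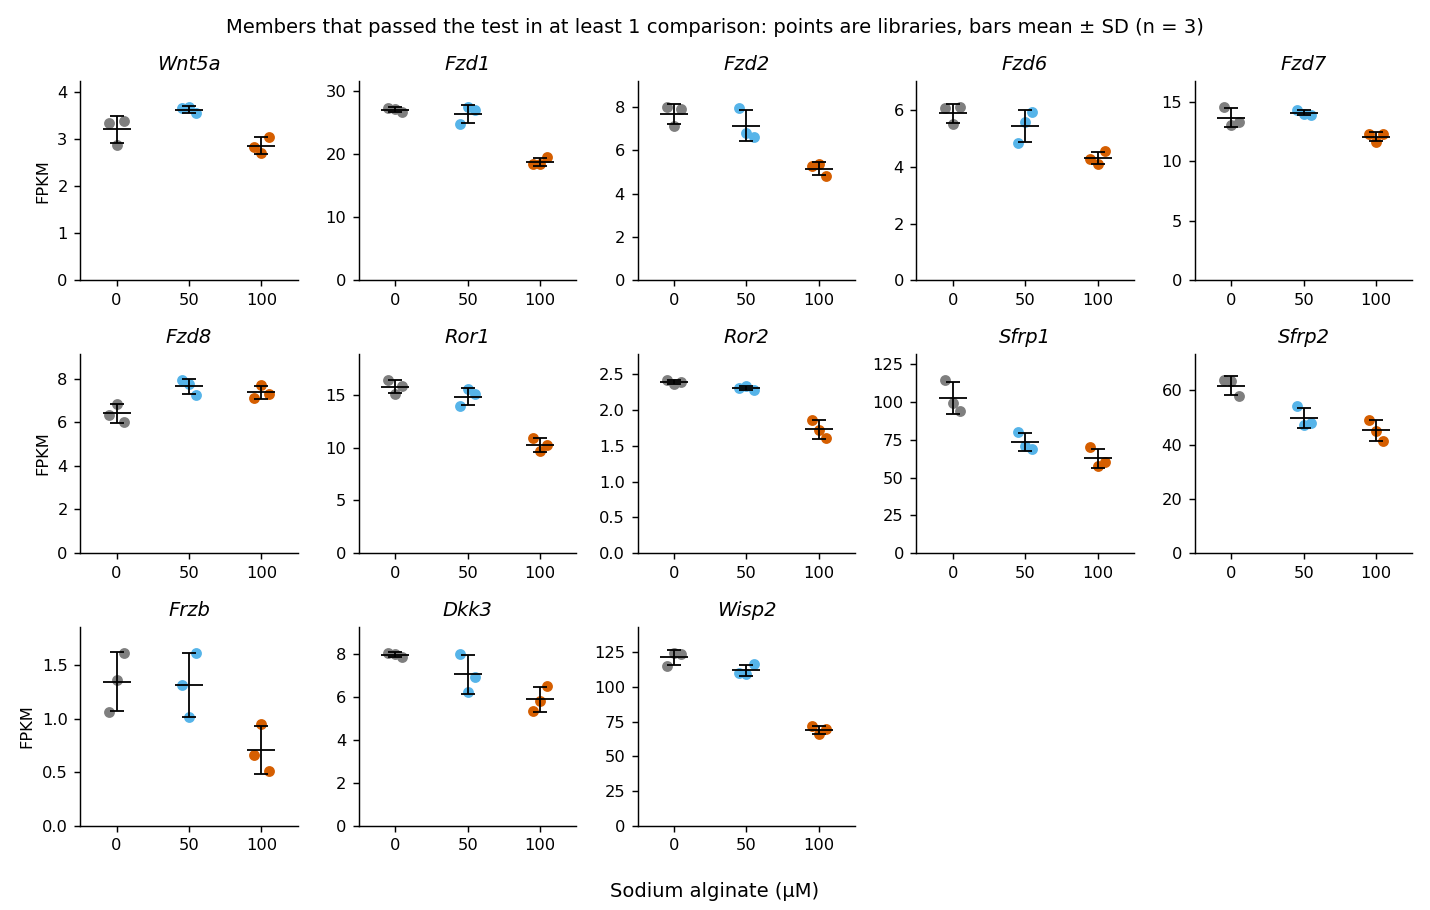
Level in FPKM of the 13 genes called in any comparison of doses, 1 panel per gene, each point a library and each bar the dose mean, at 0, 50 and 100 µM. In Fzd1, Ror1 and Wisp2 the 50 µM points lie near the 0 µM points, and in Sfrp1 and Sfrp2 they lie nearer the 100 µM points.

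Sfrp1 and Sfrp2 made up most of the secreted inhibitor transcripts. Sfrp1 (MGP_C57BL6NJ_G0033958, chromosome 8, 22202774 to 22244822 of the C57BL/6NJ assembly, plus strand) had 114.8, 99.5 and 93.9 FPKM at 0 µM, 80.0, 71.0 and 69.0 at 50 µM, and 70.0, 57.8 and 60.4 at 100 µM. The 0 µM libraries lay above all others, and the 100 µM and 50 µM libraries overlapped. Sfrp1 was called lower at 100 µM against 0 µM, with a log2 fold change at -0.70 ± 0.0945 (SE; limma adjusted p = 0.000507). At 50 µM against 0 µM the log2 fold change was -0.48 ± 0.0945 and just missed the threshold (adjusted p = 0.0615); it passed with voom (adjusted p = 0.00118) and without 100 µM replicate 1 (adjusted p = 0.0485). At 100 µM against 50 µM it was -0.22 (adjusted p = 0.119), and it passed there with voom (0.0320), removal of the authors' factor (0.0465) and without 100 µM replicate 1 (0.0492). The summed stromal progenitor markers were also lower at 50 µM, at 2797 to 2942 FPKM, against 3381 to 3630 FPKM at 0 µM. Of the 13 tested, 2 were called lower there (15.4%, against 0.435% of all tested genes), with a median log2 fold change of -0.26.

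Sfrp2 (MGP_C57BL6NJ_G0027755, chromosome 3, 86768232 to 86776227 of the C57BL/6NJ assembly, plus strand) had 63.9, 63.5 and 57.9 FPKM at 0 µM, 54.2, 47.4 and 47.9 at 50 µM, and 49.2, 45.2 and 41.3 at 100 µM. Its order of doses was that of Sfrp1, with 0 µM libraries above the rest. The log2 fold change was -0.44 ± 0.0757 at 100 µM against 0 µM (SE; limma adjusted p = 0.00188) and -0.31 ± 0.0757 at 50 µM against 0 µM, which was not called (adjusted p = 0.104; voom 0.0142). The ratio of Sfrp1 to Sfrp2 within a library averaged 1.39 ± 0.0962 at 100 µM, against 1.66 ± 0.120 at 0 µM (SD, n = 3 each).

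Frzb, which also binds Wnts outside the cell, was near the filter, with 1.07, 1.36 and 1.62 FPKM at 0 µM, 1.32, 1.02 and 1.61 at 50 µM, and 0.667, 0.955 and 0.516 at 100 µM. The 100 µM values lay below all others. No 100 µM library reached 1 FPKM, so Frzb passed the filter only through the other doses, which in part set the direction of its difference. The call at 100 µM against 0 µM (log2 fold change -0.46 ± 0.148, SE; limma adjusted p = 0.0406) was lost in 9 of 17 alternatives. Among them were the fit without the filter (adjusted p = 0.0809) and quantile normalization (0.0760). The call was also lost without 0 µM replicate 2 or 3, 50 µM replicate 1 or 100 µM replicate 1 or 3, at adjusted p between 0.0576 and 0.133.

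Dkk3, a Dickkopf relative whose link to LRP co-receptors is less settled than that of Dkk1, had 8.05, 7.98 and 7.83 FPKM at 0 µM, 7.997, 6.21 and 6.90 at 50 µM, and 5.36, 5.81 and 6.51 at 100 µM. The 100 µM libraries lay below the 0 µM libraries and overlapped the 50 µM ones. It was called lower at 100 µM against 0 µM, with a log2 fold change at -0.38 ± 0.0866 (SE; limma adjusted p = 0.00839), in all 17 alternatives. Dkk1 and Dkk4, established inhibitors of LRP5 and LRP6, had no read in any library, and Dkk2, Sfrp4, Sfrp5 and Wif1 were under the filter, with highest values of 1.03, 0.982, 0.176 and 0.0525 FPKM. The 10 secreted inhibitors summed to 175.3 ± 13.6 FPKM at 0 µM, 132.9 ± 10.0 at 50 µM and 115.8 ± 9.27 at 100 µM (SD, n = 3 each).

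The intracellular members are β-catenin, scaffolds of the destruction complex and the TCF/LEF factors. Ctnnb1, which encodes β-catenin and also serves cell adhesion, had 104.4, 111.3 and 107.5 FPKM at 0 µM, 106.4, 104.9 and 100.9 at 50 µM, and 101.6, 106.3 and 105.2 at 100 µM. The doses overlapped, and the log2 fold change at 100 µM against 0 µM was -0.04 ± 0.0410 (SE; limma adjusted p = 0.442); with quantile normalization it was -0.16 and called lower (adjusted p = 0.0358). Of the scaffold genes of the destruction complex, Apc averaged 7.51 ± 0.310 FPKM at 0 µM, 7.37 ± 0.731 at 50 µM and 7.74 ± 0.584 at 100 µM (SD, n = 3 each). Axin1 averaged 8.48 ± 0.399 FPKM at 0 µM, 9.44 ± 0.627 at 50 µM and 8.65 ± 0.692 at 100 µM. Neither scaffold was called in any comparison. Axin2, the negative-feedback target of β-catenin most often used to read pathway output, had 0.150, 0.0243 and 0.147 FPKM at 0 µM, 0.0863, 0.0678 and 0.139 at 50 µM, and 0.120, 0.2005 and 0.170 at 100 µM. These values lie under the filter and overlap, and no difference was detectable at this depth.

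Of the TCF/LEF factors, Tcf7 and Lef1 were almost unexpressed, at or below 0.126 and 0.0273 FPKM. Tcf7l1, mostly a repressor, averaged 13.7 ± 0.530 FPKM at 0 µM, 12.9 ± 1.19 at 50 µM and 11.9 ± 0.889 at 100 µM (SD, n = 3 each; limma adjusted p = 0.0700 for 100 µM against 0 µM). It passed the threshold, as lower, with the common-sum rescaling (adjusted p = 0.0163), quantile normalization (0.0407), voom (0.0347), removal of the authors' factor (0.0211) and without 50 µM replicate 3 (0.0359). Tcf7l2, the TCF factor tied in humans to type 2 diabetes risk, averaged 3.41 ± 0.202 FPKM at 0 µM, 3.67 ± 0.269 at 50 µM and 3.39 ± 0.540 at 100 µM, and was not called (limma adjusted p = 0.934 for 100 µM against 0 µM).

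Wisp2 (also Ccn5; MGP_C57BL6NJ_G0027253, chromosome 2, 174120072 to 174132286 of the C57BL/6NJ assembly, plus strand), a secreted Wnt-induced protein made by fat precursor cells and known to restrain adipogenesis, was the most abundant of the 57 genes at 0 µM. It had 115.2, 124.9 and 124.0 FPKM at 0 µM, 110.0, 109.7 and 116.8 at 50 µM, and 71.7, 66.1 and 69.6 at 100 µM. The 100 µM libraries lay far below the other 6, in which 50 µM and 0 µM libraries overlapped. On the log2(FPKM + 1) scale Wisp2 had the largest change of the 26 tested genes at 100 µM against 0 µM, with a log2 fold change at -0.80 ± 0.0496 (SE; limma adjusted p = 1.55e-05), and was also called lower against 50 µM (-0.69 ± 0.0496; adjusted p = 0.000194). That rank depended on the scale: with a pseudocount of 0.1 Frzb (-0.85) and Wnt16 (-0.82) had larger changes than Wisp2 (-0.81), and with voom they were at -0.95 and -0.87, against -0.81. At 50 µM against 0 µM the log2 fold change was -0.11 (adjusted p = 0.344).

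**Figure D4:**
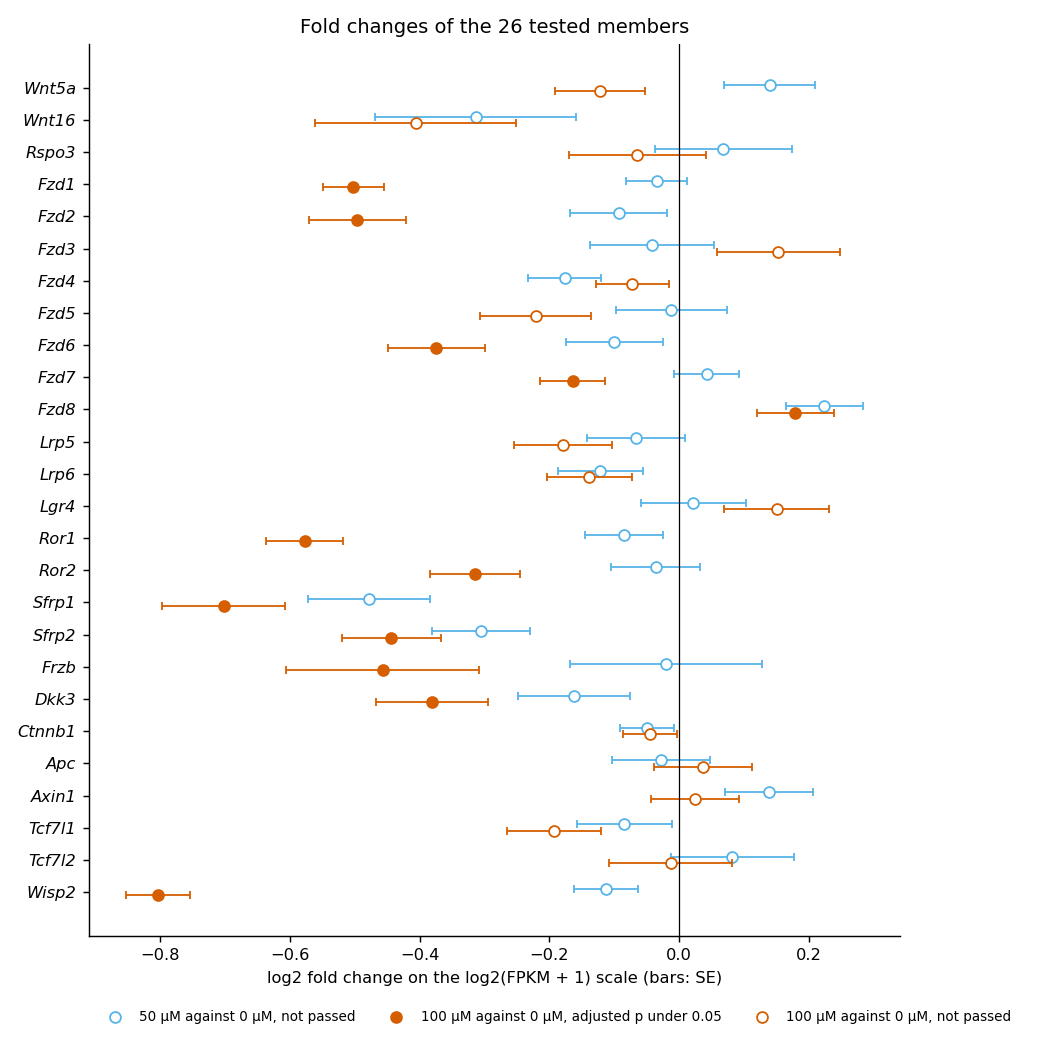
Log2 fold change against 0 µM of each tested gene at 50 µM and at 100 µM, with error bars of 1 SE from limma and filled points where the adjusted p was under 0.05. At 100 µM the values run from -0.80 for Wisp2 to 0.18 for Fzd8; both series share the 0 µM libraries.

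The position of 50 µM between the other doses was tested directly, on the log2 scale. The 50 µM mean differed from the midpoint of 0 and 100 µM for 2 of the 26 genes, that is 7.69%, against 1.49% of all tested genes. Wisp2 lay 0.29 ± 0.0429 above the midpoint (SE; limma adjusted p = 0.0276) and Fzd1 lay 0.22 ± 0.0411 above it (adjusted p = 0.0442), so that at 50 µM both were nearer their 0 µM level. Both calls were lost without the filter on low values and in most refits without 1 library, Fzd1 without any but 50 µM replicate 1 (adjusted p up to 0.165) and Wisp2 without 0 µM replicate 1 or 3, 50 µM replicate 2 or 3 or 100 µM replicate 2 or 3 (adjusted p up to 0.117). Sfrp1 lay on the other side, at -0.13 ± 0.0819, and was not called (adjusted p = 0.468).

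Promoter windows of RefSeq (build GRCm38.p6) matched 38 of the 57 genes and 6 of the 13 called in any comparison of doses. They are shown for Fzd1 and Ror1, the matched receptors with the largest changes at 100 µM against 0 µM, and for Sfrp2, the more abundant of the matched inhibitors, as the 250 bases before the RefSeq start, 5′ to 3′ on the strand of the gene. For Ror1 and Sfrp2 a GENCODE (release M21) transcript starts at the same base, whereas that of Fzd1 starts 181 bases further downstream, so the Fzd1 window depends on the annotation. Capitals mark the core letters of TCF/LEF sites, CTTTGA or CTTTGT, or their reverse complements TCAAAG or ACAAAG.
Fzd1, chr5:4758217-4758466, minus strand: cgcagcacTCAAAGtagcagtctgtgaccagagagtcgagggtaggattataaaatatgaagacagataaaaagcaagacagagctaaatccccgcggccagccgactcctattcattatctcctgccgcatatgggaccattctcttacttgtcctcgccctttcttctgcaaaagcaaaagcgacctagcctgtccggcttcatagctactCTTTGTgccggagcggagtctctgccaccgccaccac
Ror1, chr4:100095541-100095790, plus strand: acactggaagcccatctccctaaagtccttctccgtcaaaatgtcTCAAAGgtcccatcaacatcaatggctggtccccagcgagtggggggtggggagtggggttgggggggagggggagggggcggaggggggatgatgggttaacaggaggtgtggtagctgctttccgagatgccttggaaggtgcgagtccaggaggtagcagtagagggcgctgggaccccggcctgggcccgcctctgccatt
Sfrp2, chr3:83766071-83766320, plus strand: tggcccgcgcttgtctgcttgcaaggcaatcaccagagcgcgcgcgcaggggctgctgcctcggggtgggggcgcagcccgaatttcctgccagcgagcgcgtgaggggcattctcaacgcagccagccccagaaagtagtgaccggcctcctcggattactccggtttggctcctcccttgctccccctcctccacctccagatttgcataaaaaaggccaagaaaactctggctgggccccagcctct
The Fzd1 window held a core 242 bases and another 37 bases before the RefSeq start, and the Ror1 window held 1 at 205 bases. No such letters were in the Sfrp2 window. Of the 6 matched called genes, 5 held at least 1 core, against 27.7% of all 47 windows of the 57 genes and 27.6% of all 32851 windows of the build (13.8% with CTTTGA and 16.5% with CTTTGT, on either strand). Of these 5, Fzd7 and Frzb have windows that depend on the annotation, as that of Fzd1 does. Their nearest GENCODE starts lie 277 and -229 bases downstream of the RefSeq start, where a negative value means upstream. The genes are few, and the difference in share was not tested. A match is a description of letters, and nothing here measured binding.

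Genes that act on the same pathway were described in 6 lists, with a few genes in more than 1 list. Their counts stand against 18.3% called higher and 15.6% called lower over all tested genes at 100 µM against 0 µM, and in lists this short 1 gene moves the share by several percent. Of 6 tested genes for Wnt processing and release, 4 were called lower at 100 µM against 0 µM (66.7%) and 1 higher (16.7%). Wls, which carries Wnt proteins to the cell surface, averaged 13.8 FPKM at 100 µM, against 16.7 FPKM at 0 µM (log2 fold change -0.25, limma adjusted p = 0.00235). The glypicans Gpc3 and Gpc6, which bind Wnts, and Trabd2b, a protease that inactivates them, had log2 fold changes of -0.37, -0.26 and -0.28. The higher one was Porcn, the acyltransferase that lipid-modifies Wnts, at 3.19 FPKM at 100 µM, against 2.07 FPKM at 0 µM (log2 fold change 0.44, adjusted p = 0.0293).

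Of 8 tested modulators at the cell surface, 3 were called higher at 100 µM against 0 µM and 3 lower, each 37.5%, against 18.3% and 15.6% of all tested genes. Tspan12, a partner of Fzd4 in Norrin signalling, averaged 52.8 FPKM at 100 µM, against 39.4 FPKM at 0 µM (log2 fold change 0.41, limma adjusted p = 0.00184). Mest, a marker of growing adipocytes that in mouse cells limits LRP6 maturation, averaged 17.8 FPKM at 100 µM, against 13.7 FPKM at 0 µM (0.35, adjusted p = 0.000671), and the membrane-bound Wnt inhibitor Apcdd1 had a log2 fold change of 0.26. The lower ones were Ptk7, a planar polarity co-receptor (-0.42, adjusted p = 0.000568), Kremen1, a Dickkopf receptor (-0.41, adjusted p = 0.000861), and the Wnt receptor Ryk (-0.28, adjusted p = 0.00252).

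Of 18 tested Dishevelled and destruction complex genes, 3 were called higher at 100 µM against 0 µM (16.7%, near the 18.3% of all tested genes) and 1 lower (5.56%, against 15.6%), with a median log2 fold change close to 0 (-0.0032). The lower one was Dact1, a Dishevelled antagonist known to act in fat precursors, at 2.22 FPKM at 100 µM, against 4.10 FPKM at 0 µM (log2 fold change -0.67, limma adjusted p = 0.000509). Gsk3a, a kinase of the destruction complex, Ppp2ca, a phosphatase subunit, and Amer1, an APC-binding protein, were called higher, with log2 fold changes of 0.29, 0.21 and 0.21. Of 14 tested nuclear cofactors 1 was called (7.14% higher, against 18.3%), the corepressor Tle1, which was higher (0.23, adjusted p = 0.00976).

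Of 15 tested genes known as targets of β-catenin in one tissue or another, 9 were called lower at 100 µM against 0 µM (60.0%, against 15.6% of all tested genes) and none higher, whether by limma's adjusted p or at an unadjusted p below 0.05, with a median log2 fold change of -0.29. Fgf7, a growth factor of stromal cells, averaged 14.6 FPKM at 100 µM, against 27.4 FPKM at 0 µM (log2 fold change -0.86, limma adjusted p = 2.31e-05). Cd44, a hyaluronan receptor, averaged 8.71 FPKM at 100 µM, against 13.0 FPKM at 0 µM (-0.53, adjusted p = 0.000180). Id2, a differentiation inhibitor, and Wisp1, a relative of Wisp2, had log2 fold changes of -0.47 and -0.50. Many of these genes answer to other signals too, and stromal progenitor markers, lower at 100 µM, moved with them; the part of that in their change was not tested. At 50 µM against 0 µM, 1 gene of the 6 lists was called, Gja1, a gap junction gene that was lower (24.5 FPKM at 50 µM, against 30.9 FPKM at 0 µM; log2 fold change -0.32, adjusted p = 0.0320).

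Of 16 tested planar polarity and calcium branch genes, 4 were called lower at 100 µM against 0 µM (25.0%, against 15.6% of all tested genes) and 1 higher (6.25%, against 18.3%). Nfatc4, a calcium-responsive transcription factor, averaged 12.2 FPKM at 100 µM, against 17.2 FPKM at 0 µM (log2 fold change -0.47, limma adjusted p = 0.000232). The kinase gene Camk2g, the polarity gene Vangl1 and the small GTPase gene Rac1 had log2 fold changes of -0.30, -0.30 and -0.13. Nfatc3, from the same family as Nfatc4, was the higher one (0.19, adjusted p = 0.0358).

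The levels of the called genes were also set against stromal progenitor markers within each library, with pairs chosen after their values were seen and given as a description. Pdgfra and Pdgfrb, growth factor receptors of stromal cells, averaged 32.3 and 35.8 FPKM at 100 µM, against 52.1 and 49.4 FPKM at 0 µM. The ratio of Sfrp1 to Pdgfra averaged 1.95 ± 0.220 at 100 µM, against 1.97 ± 0.153 at 0 µM, and that of Fzd1 to Pdgfrb averaged 0.525 ± 0.0202, against 0.548 ± 0.0172 (SD, n = 3 each). The ratio of Sfrp2 to Pdgfra averaged 1.40 ± 0.159 at 100 µM, against 1.19 ± 0.0724 at 0 µM. These 3 ratios overlapped between the 100 µM and 0 µM libraries. The ratio of Ror1 to Pdgfrb averaged 0.287 ± 0.0112 at 100 µM, against 0.321 ± 0.0198 at 0 µM. That of Wisp2 to Pdgfrb averaged 1.93 ± 0.0315, against 2.46 ± 0.0575. In both the 100 µM libraries lay below the 0 µM libraries. Each ratio was taken to a single marker, and whether the doses overlapped may depend on that marker, for every gene here. At 100 µM against 0 µM the log2 fold change was -0.45 for Pdgfrb and -0.67 for Pdgfra. Fzd1, at -0.50, and Ror1, at -0.58, changed less than Pdgfra, and Wisp2, at -0.80, changed more. Sfrp1, at -0.70, changed more than Pdgfrb, and Sfrp2, at -0.44, about as much. Ratios of Fzd1, Ror1 and Wisp2 to Pdgfra, and of Sfrp1 and Sfrp2 to Pdgfrb, were not taken.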

How the data were processed

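The authors deposited 1 table of FPKM values per gene and library with gene lengths and symbols, per the file headers; the gene lengths are in bases. Per the submitters' processing notes the builds were GRCm38 and mm10, while gene identifiers are those of the C57BL/6NJ strain annotation, so coordinates from the table are on that assembly. No source used here names the aligner or the counting tool. FPKM times length came out as whole multiples of 1 read for 100% of values, within 0.01 read, so reads were rebuilt for a limma-voom alternative; the scaling total over rebuilt reads was lower at 100 µM (0.969 to 0.976) than at 50 and 0 µM (1.01 to 1.03).

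The log2(FPKM + 1) values were fitted in limma 3.58.1 (R 4.3.3), with 1 mean per dose over all 9 libraries, a variance trend and Benjamini-Hochberg adjustment over the 12635 genes that reached 1 FPKM in 3 or more libraries. The fit was tested on simulated data, with a pass required only for changes larger than those of the Wnt genes called here. That test therefore sets no standard for smaller changes. Named were all genes of the rule, up to 4 called genes of each pathway list by smallest p, all called genes where 5 or fewer passed in a direction (chosen after their values were seen) and the first 2 genes of each marker list, except 1 gene that is not reported here. The genes and lists were chosen with earlier results of these data known. Alternatives changed the pseudocount (0.1), the filter, the scaling, the test, the doses fitted and the replicate block, or left out each library in turn. No edit was made for overlapping genes; genes overlapping the called ones had at most 7 reads in a library.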

Additional observations from a re-analysis of the deposited data

How the results depend on the processing

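Over 41 fold changes with an unadjusted p below 0.05, none of 689 values under the alternatives reversed sign. Many of those values could not do so, as dropping the filter, fitting only 2 doses or adding the replicate block leaves a fold change as it was. So does leaving out a library of a dose not compared. The 41 were also picked by their p in the same libraries, so the lack of reversals is no separate support. Of the 22 called ones, 13 were called in every alternative run: Wisp2, Fzd1, Ror1 and Fzd2 at 100 µM against 0 and 50 µM, and Sfrp1, Sfrp2, Dkk3, Fzd6 and Ror2 at 100 µM against 0 µM. The number of the 26 genes called higher at 100 µM against 0 µM was 0 with the common-sum rescaling, voom, removal of the authors' factor and a fit of only the 2 doses compared, and 0 to 1 without 1 library. The number called lower was 9 to 13 without 1 library and 9 to 15 in the other alternatives. At 50 µM against 0 µM the number lower was 2 with voom and 0 to 1 without 1 library, the 1 being Sfrp1 without 100 µM replicate 1. At 100 µM against 50 µM, 0 to 1 were higher and 5 to 8 lower without 1 library. For the midpoint, the number called was 0 without the filter, 0 with the replicate block and 0 to 2 without 1 library. Without the filter, Frzb and Fzd8 lost their calls against 0 µM and Fzd6 and Wnt5a theirs against 50 µM; with a fit of only 2 doses, Frzb, Fzd7 and Fzd8 lost theirs against 0 µM and Fzd6 and Ror2 theirs against 50 µM. At 100 µM against 50 µM, Dkk3, Frzb, Fzd5 and Sfrp1 were called lower in some alternatives, with adjusted p from 0.0154 to 0.0499. The causes were not tested. A fit of 2 doses gives no midpoint, so that alternative was not run for it.

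Over all tested genes, 45 were called higher and 55 lower at 50 µM against 0 µM, but 6 and 6 without the filter, 169 and 179 with voom, and none with a fit of only those doses (1837 at an unadjusted p below 0.05) or with the replicate block (1603). For the midpoint, 125 lay above and 63 below, but 1 and 1 without the filter, 261 and 51 with the common-sum rescaling, 262 and 53 without the authors' factor, 443 and 246 with voom, and 3 and 4 with the replicate block. At 100 µM against 50 µM, 1663 were called higher and 1510 lower, but 1060 and 2031 with the common-sum rescaling and 1102 and 2180 without the authors' factor. Same-numbered libraries did not deviate together (r between -0.0941 and 0.0412), so replicate numbers were not taken as pairs; in the block fit Frzb lost its call at 100 µM against 0 µM (adjusted p = 0.0710) and Sfrp1 gained one against 50 µM (adjusted p = 0.0154). Depth limits the 31 genes under the filter most, since few reads stand behind each of their values.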

Other observations

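Wnt2b, a ligand under the filter on low values, had 0.181, 0.127 and 0.192 FPKM at 0 µM, 0.198, 0.341 and 0.242 at 50 µM, and 0.328, 0.333 and 0.525 at 100 µM. All 100 µM libraries lay above all 0 µM libraries. With no filter on low values it was called higher at 100 µM against 0 µM (log2 fold change 0.26 ± 0.0693, SE; limma adjusted p = 0.0455), on 8 to 33 reads per library. It was singled out after its values were seen. Wnt4, another ligand under the filter, ran the other way, with 0.269, 0.603 and 0.262 FPKM at 0 µM, 0.493, 0.319 and 0.404 at 50 µM, and 0.146, 0.233 and 0.196 at 100 µM, and was not called in that fit.

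Markers of further cell types had the following levels. Of 9 tested smooth muscle and pericyte markers, 2 were called lower and 2 higher at 100 µM against 0 µM, each 22.2%, against 15.6% lower and 18.3% higher over all tested genes. The lower ones were Acta2, smooth muscle actin, at 113.6 FPKM at 100 µM, against 177 FPKM at 0 µM, and Tagln, at 74.2 FPKM at 100 µM, against 108.1 FPKM at 0 µM. The higher ones were Cspg4, at 1.86 FPKM at 100 µM, against 1.21 FPKM at 0 µM, and Mcam, at 15.3 FPKM at 100 µM, against 13.2 FPKM at 0 µM. Both tested mesothelial markers were called lower, and the defining genes Msln and Upk3b were at or under 0.117 FPKM on average at every dose, with Upk1b at 0. Of 3 tested Schwann cell markers 1 was called lower, with Sox10 under the filter. Of 3 tested osteoblast and chondrocyte markers 1 was called lower; Runx2, a bone master regulator, averaged 1.41 FPKM at 100 µM, against 1.76 FPKM at 0 µM, and was not called, and Ibsp was at 0. The macrophage genes Adgre1 and Cd68 averaged 10.3 and 29.7 FPKM at 100 µM, against 12.3 and 37.6 FPKM at 0 µM. The endothelial genes Pecam1 and Cdh5 averaged 24.8 and 41.9 FPKM at 100 µM, against 31.0 and 51.7 FPKM at 0 µM, and Plin1, a lipid droplet protein of adipocytes, averaged 310.5 FPKM at 100 µM, against 208.8 FPKM at 0 µM.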
